A study of Homo sapiens with 6 samples.

Results

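The Wnt pathway genes of the UM-SCC1 transcriptome were examined after miR-204-5p mimics. Members were the Wnt ligand genes (symbols that start with WNT and a digit), the Frizzled receptor genes (FZD and a digit), the Dishevelled genes DVL1 to DVL3, and 27 further genes of ligand secretion, reception, β-catenin destruction and nuclear transcription that were named one by one. The table held 49 of them among 14959 genes. They comprised 14 ligands, 9 Frizzled receptors and 26 other genes, and 4 of the 27 named genes (AXIN2, NKD1, ROR2 and SFRP1) were not analysed here. The rule itself uses names and no measured value, but it was set with earlier results of these data known.

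UM-SCC1 is an immortal line grown from a human squamous carcinoma of the head and neck, so every library came from the same cell line. 1 group of 3 cultures received miR-204-5p mimics, which are synthetic double-stranded RNAs that load a cell's silencing machinery with that microRNA, and the other group of 3 cultures received control mimics. Both groups were transfected with a lipid reagent (Lipofectamine RNAiMax), and RNA was taken 48 h later. The design describes the experiments of each group as independent. Expression was given in FPKM, a fragment count scaled to transcript length and to the mapped fragments of the library. The length is that of 1 listed transcript per gene, which for some genes is shorter than the longest annotated one. Comparisons of levels between genes depend on that length. The 10 squamous epithelial markers were expressed at a mean of 2.07 (KRT6A) to 321 FPKM (SFN). Of the fibroblast markers, LUM, PDGFRB and COL1A2 had means of 0.0351, 0.268 and 0.464 FPKM. The endothelial markers CDH5, PECAM1 and VWF had means of 0.039, 0.147 and 0.378 FPKM. COL1A2, PDGFRB and VWF were higher with miR-204-5p mimics (limma adjusted p = 0.00245, 0.00628 and 0.0234), and LUM, COL1A1, CDH5 and PECAM1 did not pass the test. The fibroblast collagen COL1A1 was present at a mean of 8.91 FPKM and made up most of the fibroblast sum. CD68, on the leukocyte list, was present at a mean of 10.2 FPKM and made up most of the leukocyte sum. The summed level of the 10 squamous markers was 976 to 1085 FPKM with miR-204-5p mimics and 1138 to 1170 with control mimics, that of the 4 fibroblast markers 9.81 to 11.6 and 8.58 to 9.41 FPKM, that of the 3 endothelial markers 0.59 to 0.767 and 0.443 to 0.502 FPKM, and that of the 4 leukocyte markers 10.7 to 11.9 and 11.1 to 12.9 FPKM. Within the squamous list 6 genes were lower and 3 higher, from TP63 and DSG3 (log2 fold change -1.01 each) to KRT6A (0.81). The part of these shifts in the results was not tested. In bulk RNA, fewer cells that express a gene and less of its RNA per cell cannot be told apart.

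Wnt ligands are secreted lipid-modified glycoproteins. PORCN attaches the lipid and WLS carries the ligand to the cell surface, where it binds a Frizzled receptor together with the co-receptor LRP5 or LRP6. Dishevelled proteins then disable a cytoplasmic complex of AXIN, APC, GSK3 and casein kinase 1α that otherwise marks β-catenin for degradation, and the spared β-catenin enters the nucleus and works with TCF/LEF factors, BCL9 and PYGO. In squamous epithelia the pathway is known for its part in the upkeep of basal cells and in development of the oral cavity and skin appendages.

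The mature miR-204-5p has 22 bases and is encoded on the minus strand at chr9:70810031-70810052 (GRCh38.p14, RefSeq). Its sequence is shown because bases 2 to 8, the seed that pairs with target mRNAs, define the matches counted here, and these bases are in capitals.
miR-204-5p: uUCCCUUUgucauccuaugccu
A match to bases 2 to 8 followed by an A is an 8mer (AAAGGGAA), the same match without that A is a 7mer-m8 (AAAGGGA), and a match to bases 2 to 7 followed by an A is a 7mer-A1 (AAGGGAA). Only the sense strand of the mRNA was searched, in the longest 3'UTR annotated for each gene in GENCODE 29, and a gene was assigned to its best class, so that the overlapping motifs entered no gene into more than 1 class. Of the 49 Wnt genes, 18 (36.7%) held a match of at least 7 bases, against 27.1% of the 14664 genes with an annotated 3'UTR. An 8mer was present in 8 of them (16.3%), against 8.6%. The median 3'UTR was 1753 bases long for the Wnt genes and 1252 for all genes, and longer sequences can hold more matches. Whether length accounts for the higher shares was not tested.

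The sites of the Wnt genes that fell with miR-204-5p mimics are printed first, with the best match of a gene before any other. Each sequence runs from 5′ to 3′ along the transcript, with the matched bases in capitals.
WNT4, 8mer: tcaaatgccctgagAAAGGGAAcaagca
WNT4, 7mer-m8: ggctgccactgaccAAAGGGAccttgc
FZD1, 8mer: tgggcatgcatgctAAAGGGAAaatgtg
FZD1, 7mer-A1: aaatgggatcttacAAGGGAAgtacca
TCF7L1, 7mer-m8: caacccccgcatttAAAGGGActcaag
BCL9, 7mer-m8: tgtactatattgtaAAAGGGAttttag
FZD5, 7mer-A1: acattggcccaaatAAGGGAAaataag
WNT3A, 7mer-A1: gtccacagccccttAAGGGAAaggtag
The matches lie in the last exon of each gene on GRCh38. The 8mer of WNT4 is at chr1:22119527-22119534 on the minus strand and that of FZD1 at chr7:91268343-91268350 on the plus strand, in its single exon. The 7mer-m8 of TCF7L1 is in exon 12 at chr2:85310081-85310087 and that of BCL9 in exon 10 at chr1:147625386-147625392, both on the plus strand. The 7mer-A1 of FZD5 is in exon 2 at chr2:207765747-207765753 on the minus strand and that of WNT3A in exon 4 at chr1:228060788-228060794 on the plus strand. All lie within the transcript that the table lists for the gene.

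The best sites of the Wnt genes that held a match and rose, or did not pass the test, are shown for comparison. The site of FZD3 was left out.
RNF43, 8mer: tagacggtgaaatgAAAGGGAAaaaaag
ROR1, 8mer: tctaggagtcccttAAAGGGAAattagc
WNT3, 7mer-m8: agagaaagctagcaAAAGGGAggcaca
GSK3B, 7mer-m8: agaaaacaactctgAAAGGGAcagttt
WNT2B, 7mer-m8: ctgacctcaaaggtAAAGGGAtagaaa
TCF7, 7mer-A1: tgtgtcatctaattAAGGGAAtccctt
LRP6, 8mer: taaatatgggtattAAAGGGAAaatttt
DVL3, 8mer: ttgtctggtacctgAAAGGGAAataaaa
FZD4, 8mer: tttttcagttttatAAAGGGAActgagg
BCL9L, 8mer: ggcagctgtaatacAAAGGGAActcgcc
ZNRF3, 7mer-m8: gtgtttcatttttaAAAGGGAgagaga
The 8mer of ROR1 at chr1:64180807-64180814 and the match of WNT2B at chr1:112525440-112525446 lie outside the shorter transcripts listed for these genes. The 8mer of RNF43 lies in exon 10 at chr17:58352878-58352885 and is part of the listed transcript.

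Across the 49 Wnt genes, 25 differed between the groups at an adjusted p-value under 0.05 from limma on log2(FPKM + 1), 9 with lower and 16 with higher expression under miR-204-5p mimics. The adjustment ran over all 14959 genes, of which 40.8% passed, 16.8% lower and 23.9% higher. The Wnt genes' 51.0% is read against that high background. Separate group ranges were found for 31 of the 49 genes, with 13 lower and 18 higher under miR-204-5p mimics, and for 53.6% of all genes. The Wnt genes had a median log2 fold change of 0.02 and all genes one of 0.03, and members moved both ways. When FPKM values were scaled to equal medians, 11 were lower and 12 higher, and the same numbers were found with quantile normalization. With 3 libraries against 3, the smallest two-sided exact permutation p for a single gene is 0.1, which every gene without overlap reaches, and the significance statements therefore rest on limma. Fold changes are given as the ratio of mean FPKM, or on the log2(FPKM + 1) scale where log2 is named. On that scale the change of a weakly expressed gene is understated.

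**Figure D1:**
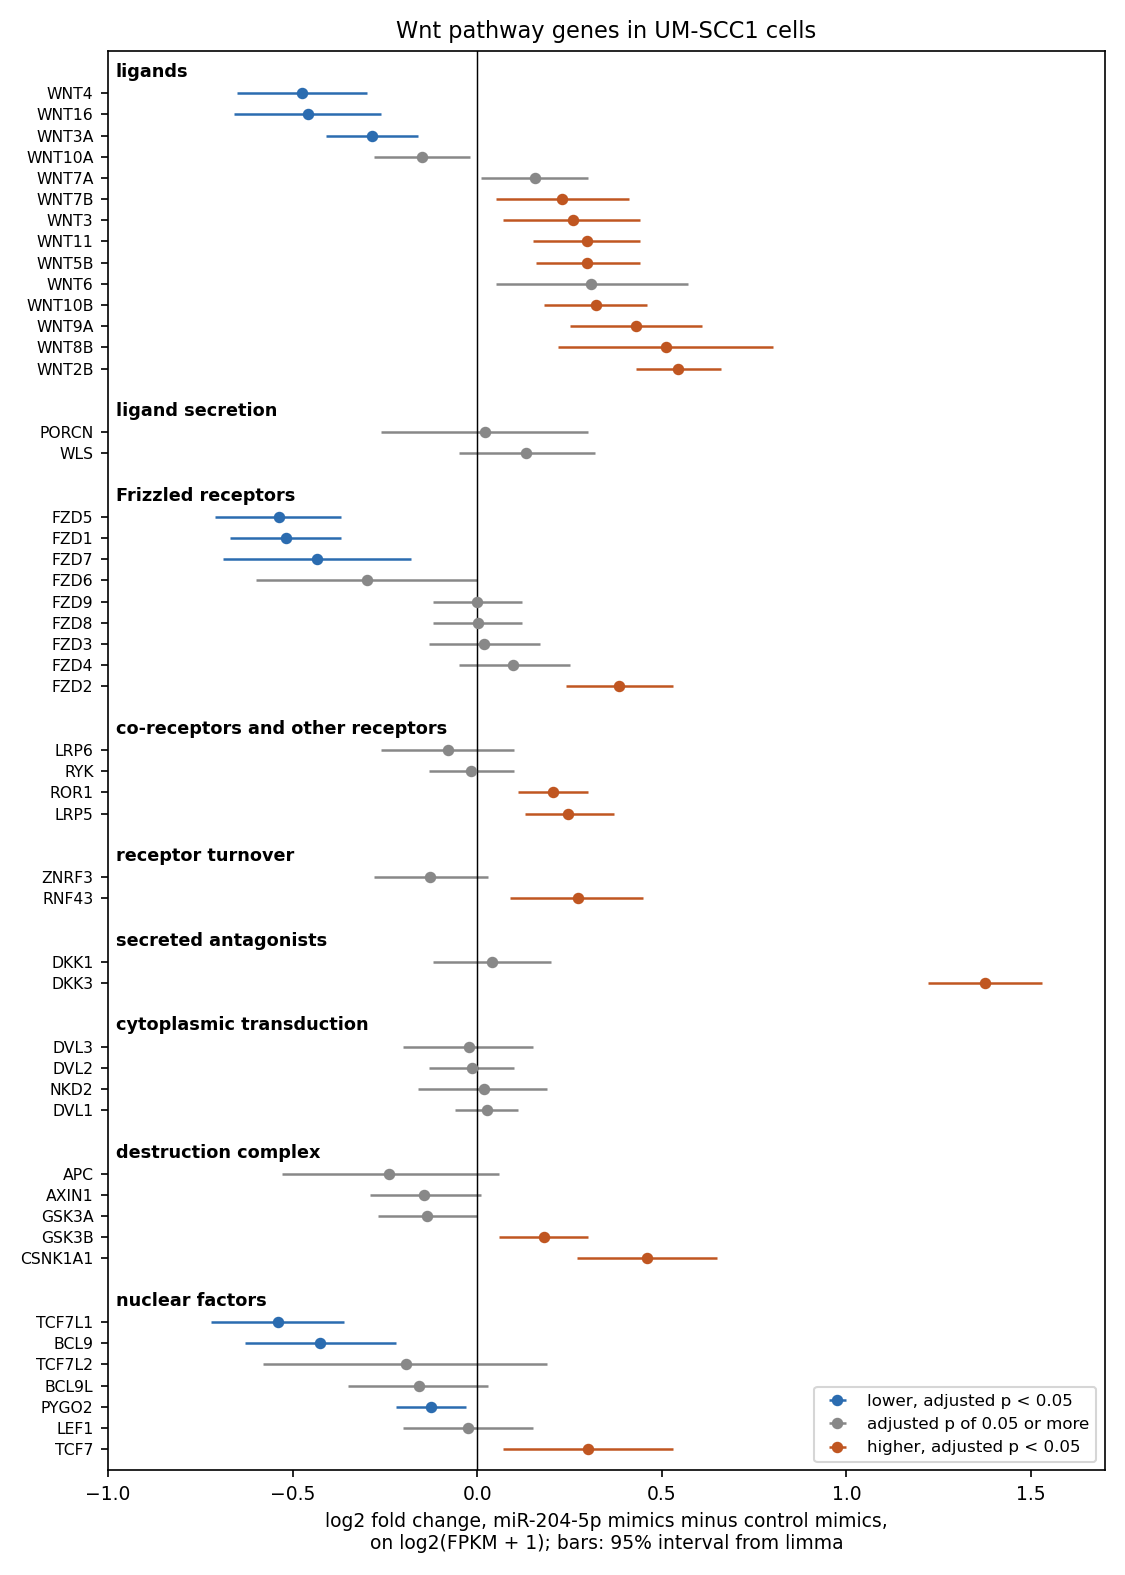
Log2 fold change on log2(FPKM + 1) (x axis) of the 49 Wnt pathway genes (y axis), grouped by role, for 3 miR-204-5p libraries minus 3 with control mimics. Points are limma estimates, bars their 95% intervals, and colours mark the 9 lower, 16 higher and 24 other genes. DKK3 stands at 1.38, and the remaining genes lie between -0.54 and 0.55.

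The ligands showed the most calls, with 11 of 14 past the test, 3 lower and 8 higher. They fell into a set of 7 with a mean FPKM of at least 1 (2 lower and 3 higher) and a set of 7 below it (1 lower and 5 higher). Among all genes averaging 1 FPKM or more, 47.8% were called, 20.1% lower and 27.7% higher, and among all genes below that level 17.4% were called, 5.99% lower and 11.4% higher. WNT4 was the most abundant ligand to fall. Its gene lies at chr1:22117305-22142966 (minus strand), and its ligand acts in kidney, reproductive tract and epithelial development. WNT4 had 8.37, 7.66 and 8.04 FPKM in the miR-204-5p libraries and 11.5, 12.7 and 10.6 FPKM in those with control mimics. No miR-204-5p library reached the lowest control. The mean was 8.03 ± 0.355 against 11.6 ± 1.07 FPKM (SD, n = 3), 1.44-fold lower, a log2 fold change of -0.48 by limma (SE 0.0736, adjusted p = 0.00303). The listed WNT4 transcript shares 55 bases with an antisense gene, AL445253.1.

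WNT3A, the classical activator of β-catenin signalling, at chr1:228007051-228061260 on the plus strand, also fell. Its values were 6.05, 6.24 and 5.81 FPKM against 7.74, 7.43 and 7.56 FPKM, with narrow spread in both groups. The decrease was 1.26-fold (limma log2 fold change -0.29, SE 0.0515, adjusted p = 0.00556). The neighbouring ligand gene WNT9A lies 59.2 kb away on the minus strand, at chr1:227918656-227947898, and moved the other way. WNT9A had 2.80, 2.33 and 2.79 FPKM with miR-204-5p mimics and 1.80, 1.65 and 1.64 FPKM with control mimics. Every miR-204-5p library lay above every control, a 1.55-fold increase (limma log2 fold change 0.43, SE 0.0747, adjusted p = 0.00493). In FPKM, WNT4 exceeded WNT9A by 6.35 to 7.69 times in the control libraries and by 2.89 to 3.29 times with miR-204-5p mimics.

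WNT10A, a ligand of tooth, hair and tongue epithelium, was the most abundant of the 14 and took 37.7% to 40.6% of the summed ligand FPKM in controls. WNT10A had 19.0, 20.1 and 21.2 FPKM with miR-204-5p mimics and 21.8, 22.1 and 23.3 FPKM with control mimics. The groups did not overlap, but the difference did not pass the test (limma log2 fold change -0.15, 95% interval -0.28 to -0.02, adjusted p = 0.0599). It did pass with FPKM scaled to equal medians, with quantile normalization and without miR-204-5p mimics replicate 3. WNT7A, a ligand of epithelial differentiation, had 6.61, 6.09 and 6.27 against 5.35, 5.5 and 5.88 FPKM (limma log2 fold change 0.16, adjusted p = 0.0785). The summed FPKM of all 14 ligands was 54.2 to 56.9 with miR-204-5p mimics and 56.7 to 58.6 with control mimics, ranges that overlapped.

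WNT3 and WNT7B were higher by small amounts. WNT3 had 3.5, 3.44 and 3.66 FPKM against 2.48, 3.11 and 2.81 FPKM (limma log2 fold change 0.26, adjusted p = 0.0367), and WNT7B had 3.63, 3.68 and 4.17 against 3.05, 3.36 and 2.95 FPKM (limma log2 fold change 0.23, adjusted p = 0.047). Both calls were fragile. That of WNT7B was lost under 9 of 11 alternatives, each single library left out among them (limma adjusted p up to 0.132), and that of WNT3 under 8 of 11 (up to 0.104).

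The other ligands were present at less than 1 FPKM on average, where a transcript rests on few fragments. WNT2B, at chr1:112466541-112521283 on the plus strand, had the firmest difference among them, with 0.852, 0.747 and 0.793 FPKM against 0.25, 0.258 and 0.187 FPKM, 3.44-fold higher (limma log2 fold change 0.55, SE 0.0475, adjusted p = 0.000338). From the inferred depth, these values stand for about 31 to 35 and 8.7 to 10 fragments. WNT10B rose 1.59-fold, from 0.697, 0.666 and 0.831 FPKM with control mimics to 1.22, 1.10 and 1.16 FPKM (limma log2 fold change 0.32, adjusted p = 0.0054). WNT8B had 0.739, 1.24 and 0.664 FPKM with miR-204-5p mimics and 0.353, 0.213 and 0.362 FPKM with control mimics (limma log2 fold change 0.51, adjusted p = 0.0151). Its call was lost without control mimics replicate 2 (limma adjusted p = 0.0515). These ligands rose from a low level, and even with miR-204-5p mimics none exceeded 1.24 FPKM in any library.

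WNT16 was the sole ligand of this low group that fell, at 0.15, 0.204 and 0.209 FPKM against 0.857, 0.506 and 0.552 FPKM (limma log2 fold change -0.46, SE 0.0845, adjusted p = 0.00607), values that stand for about 2.4 to 4.0 and 8.7 to 15 fragments. WNT11, a ligand of β-catenin-independent signalling and cell movement, was listed at 0 in 2 control libraries and at 0.0316 FPKM in the other one, and had 0.337, 0.147 and 0.244 FPKM with miR-204-5p mimics (limma log2 fold change 0.30, adjusted p = 0.00914). WNT5B had 0.474, 0.35 and 0.51 FPKM against 0.228, 0.171 and 0.125 FPKM (limma log2 fold change 0.30, adjusted p = 0.00826). WNT11 rested on 4.5 to 8.5 inferred fragments per miR-204-5p library and at most 0.85 with control mimics, and WNT5B on 3.0 to 4.2 and 1.1 to 1.7, so no fold is given for either. The WNT5B value rests on a listed transcript of 530 bases, where the longest annotated one has 2303, and WNT11 shares bases with an antisense gene, AP000785.1. WNT6 overlapped between groups (0.919 to 1.35 against 0.577 to 0.953 FPKM, limma adjusted p = 0.0632) and passed the test without control mimics replicate 2.

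**Figure D2:**
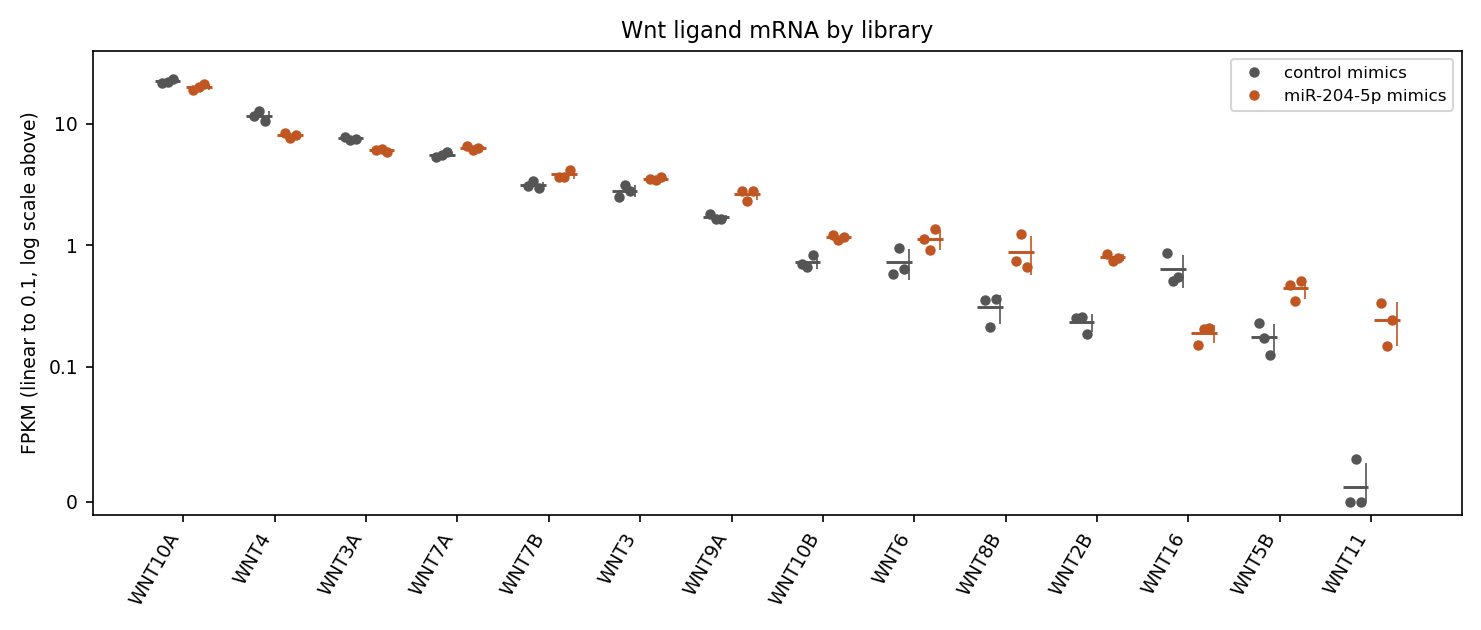
FPKM (y axis, linear to 0.1 and on a log scale above) of the 14 Wnt ligand genes (x axis, ordered by mean FPKM) in each of 3 control and 3 miR-204-5p libraries. Points are libraries, horizontal lines the group means and vertical lines the SD. The abundant WNT4 and WNT3A are lower with miR-204-5p mimics, while most ligands below 1 FPKM are higher and WNT16 is lower.

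Neither gene of ligand secretion passed the test. WLS, the ligand carrier, had 29.5, 30.2 and 33.1 FPKM with miR-204-5p mimics and 27.1, 31.3 and 26.2 FPKM with control mimics (log2 fold change 0.13, 95% interval -0.05 to 0.32). PORCN, the acyltransferase, spanned 8.36 to 11.7 against 9.02 to 9.87 FPKM (log2 fold change 0.02, 95% interval -0.26 to 0.30). The groups overlapped for both.

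Of the 9 Frizzled receptors, 3 fell and 1 rose after miR-204-5p mimics, and this share of 44.4% was near the 40.8% of all genes. FZD1, FZD2 and FZD7 form one subfamily by sequence, and they did not move together. FZD1, at chr7:91264364-91271326 on the plus strand, had 1.14, 1.12 and 1.33 FPKM with miR-204-5p mimics and 2.05, 2.17 and 2.20 FPKM with control mimics. It fell 1.79-fold (limma log2 fold change -0.52, SE 0.0628, adjusted p = 0.00116). FZD7, at chr2:202034587-202038445 on the plus strand, had 2.72, 3.44 and 3.90 FPKM against 4.70, 4.94 and 4.90 FPKM, 1.45-fold lower (limma log2 fold change -0.43, SE 0.105, adjusted p = 0.0172). The FZD7 miR-204-5p libraries were more scattered than the controls, and the call was lost without replicate 2 or 3 of the control mimics (limma adjusted p up to 0.0535). FZD2, at chr17:44557459-44559570 on the plus strand, had 13.3, 13.2 and 15.1 FPKM against 10.3, 10.2 and 10.7 FPKM, 1.34-fold higher (limma log2 fold change 0.39, SE 0.0624, adjusted p = 0.00363). FZD1 holds the 8mer and the 7mer-A1 printed above, and neither FZD7 nor FZD2 holds a match of 7 bases. The annotated 3'UTR of FZD2 is 184 bases long, against 4502 for FZD1.

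FZD5, at chr2:207762586-207769563 on the minus strand, a receptor known from eye and gut epithelium, had 6.38, 7.31 and 7.68 FPKM with miR-204-5p mimics and 10.9, 10.9 and 10.5 FPKM with control mimics. All control libraries were above all miR-204-5p libraries, a 1.51-fold decrease (limma log2 fold change -0.54, SE 0.0707, adjusted p = 0.00159). FZD5 and FZD2 were level in control cells, with an FPKM ratio of 0.979 to 1.07, and FZD5 was at 0.479 to 0.554 of FZD2 with miR-204-5p mimics. FZD6, which acts in planar polarity, was the most abundant Frizzled gene, at 21.2, 28.7 and 27.9 FPKM against 30.0, 35.8 and 30.2 FPKM. Its groups did not overlap, yet the scatter within them was wide and the difference did not pass (limma log2 fold change -0.30, 95% interval -0.60 to 0.00, adjusted p = 0.103). FZD4, with an 8mer and 2 7mer-A1 matches, had 2.29, 2.64 and 2.53 against 2.24, 2.26 and 2.27 FPKM (log2 fold change 0.10, 95% interval -0.05 to 0.25), and it shares 1399 bases with PRSS23 on the other strand. FZD3 spanned 1.7 to 1.73 and 1.51 to 1.79 FPKM, and FZD8 and FZD9 did not exceed 0.309 FPKM in any library with groups that overlapped. Summed over the 9 genes, Frizzled FPKM was 49.1 to 60.5 with miR-204-5p mimics and 62.0 to 68.4 with control mimics, and the share of FZD2 in that sum was 22.5% to 27.1% against 14.9% to 17%.

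**Figure D3:**
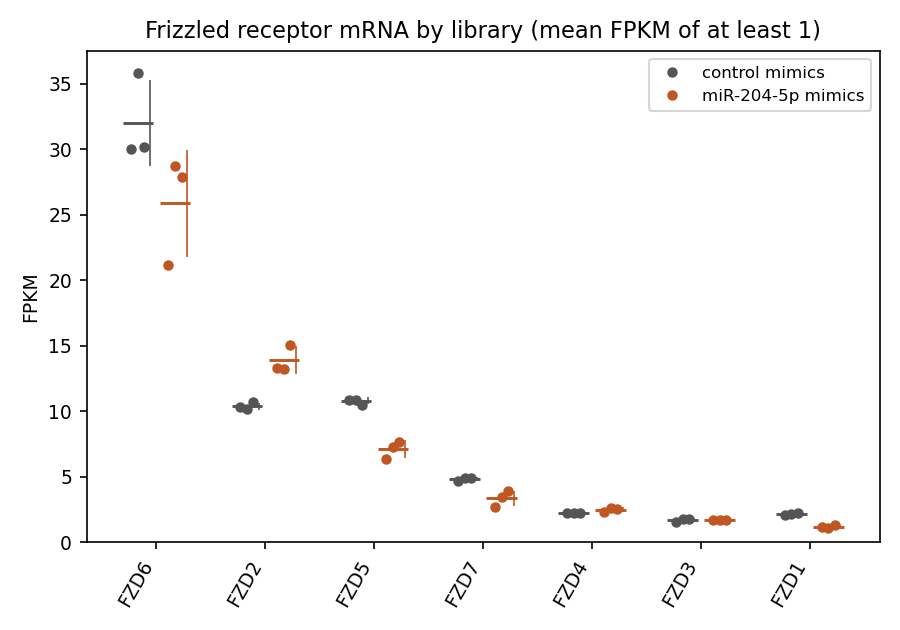
FPKM (y axis, linear) of the 7 Frizzled genes that average 1 FPKM or more (x axis) in each library. Points are the 3 control and 3 miR-204-5p libraries, horizontal lines the means and vertical lines the SD. FZD5, FZD7 and FZD1 are lower with miR-204-5p mimics, FZD2 is higher, and FZD6 is scattered.

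Among the co-receptors, LRP5 rose and LRP6 did not pass the test. LRP5, at chr11:68312609-68449275 on the plus strand, was the second most abundant of the 49 genes, with 43.8, 46.1 and 49.4 FPKM against 39.0, 39.5 and 38.2 FPKM. The groups were separate, and the increase was 1.19-fold (limma log2 fold change 0.25, SE 0.0499, adjusted p = 0.00859). LRP6 holds 3 matches (an 8mer, a 7mer-m8 and a 7mer-A1) and had 6.86, 7.64 and 7.87 against 8.49, 7.99 and 7.32 FPKM, with overlap (log2 fold change -0.08, 95% interval -0.26 to 0.10). ROR1, a receptor of β-catenin-independent Wnt signalling, was low but separate, at 0.419, 0.403 and 0.433 FPKM against 0.19, 0.239 and 0.264 FPKM (limma log2 fold change 0.21, adjusted p = 0.00854). RYK spanned 17.7 to 19.4 and 18.2 to 19.4 FPKM, but its listed transcript is annotated as a target of nonsense-mediated decay and, unlike the longest annotated 3'UTR of the gene, holds an 8mer.

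RNF43 and ZNRF3 encode related ubiquitin ligases that remove Frizzled receptors from the membrane. RNF43, at chr17:58352500-58417352 on the minus strand, had 3.40, 3.57 and 4.04 FPKM with miR-204-5p mimics and 2.93, 2.70 and 2.96 FPKM with control mimics (limma log2 fold change 0.27, adjusted p = 0.0263). ZNRF3 had 2.67, 2.80 and 2.95 against 3.27, 2.95 and 3.27 FPKM (limma log2 fold change -0.13, adjusted p = 0.16), and passed with quantile normalization. RNF43 thus rose although it holds an 8mer. Its call was lost under 7 of 11 alternatives (limma adjusted p up to 0.0816), and its listed transcript shares exon sequence with SUPT4H1 (143 bases, same strand, mean 23.6 FPKM), with AC004687.2 (3029 bases, same strand) and with TSPOAP1-AS1 (other strand).

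DKK3 showed the largest change of all 49 genes in absolute log2 fold change. It encodes a secreted Dickkopf-family protein that, unlike DKK1, is not an established ligand of LRP5 and LRP6, and it is known as REIC, a gene reduced in immortalized cells. DKK3, at chr11:11963106-12009082 on the minus strand, had 7.59, 7.22 and 7.73 FPKM with miR-204-5p mimics and 2.5, 2.14 and 2.21 FPKM with control mimics. The lowest miR-204-5p library was far above the highest control. The mean was 7.51 ± 0.259 against 2.28 ± 0.187 FPKM (SD, n = 3), 3.29-fold higher, a log2 fold change of 1.38 by limma (SE 0.066, adjusted p = 5.97e-05). It stayed between 1.33 and 1.68 under the 11 alternatives, each time past the threshold. DKK1, the antagonist that binds LRP5 and LRP6, was the most abundant of the 49 genes and had 64.0, 58.3 and 56.8 FPKM against 57.6, 54.3 and 62.2 FPKM. Its groups overlapped (log2 fold change 0.04, 95% interval -0.12 to 0.20), and the sign turned under 3 alternatives. Neither gene holds a match of 7 bases.

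None of the Dishevelled genes, which relay the signal from Frizzled, passed the test. DVL1 had 28.5, 28.5 and 29.7 against 28.2, 28.9 and 28 FPKM (log2 fold change 0.03, 95% interval -0.06 to 0.11). DVL2 had 27.8, 28.9 and 29.8 against 30.7, 28.2 and 28.6 FPKM (log2 fold change -0.01, 95% interval -0.13 to 0.10), and DVL3, with an 8mer, had 18.4, 19.1 and 22.0 against 20.8, 20.2 and 19.3 FPKM (log2 fold change -0.02, 95% interval -0.20 to 0.15). For each of them the groups overlapped. NKD2, a Dishevelled-binding antagonist, was at 0 to 0.178 FPKM.

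In the destruction complex, the casein kinase 1α gene CSNK1A1, which places the priming phosphate on β-catenin, was higher. CSNK1A1, at chr5:149492197-149551397 on the minus strand, had 29.2, 24.0 and 27.3 FPKM with miR-204-5p mimics and 18.1, 20.1 and 19.3 FPKM with control mimics, 1.4-fold higher (limma log2 fold change 0.46, SE 0.0785, adjusted p = 0.00444). The groups were separate in spite of the scatter, but 2547 bases of its listed transcript also belong to AC021078.1 on the same strand. GSK3B, the kinase that completes the phosphorylation, had 16.6, 17.6 and 18.3 against 15.5, 15.5 and 14.9 FPKM (limma log2 fold change 0.18, adjusted p = 0.0266), a call lost under 7 of 11 alternatives (limma adjusted p up to 0.0779). Its paralogue GSK3A had 8.58 to 9.21 against 9.35 to 10.3 FPKM, the opposite sign (limma log2 fold change -0.14, adjusted p = 0.0972; the call was gained with equal medians), and whether the paralogues differ in their change was not tested. The scaffold AXIN1 had 19.6, 20.1 and 22.7 against 23.3, 22.2 and 23.6 FPKM (limma log2 fold change -0.14, adjusted p = 0.113), and passed without miR-204-5p mimics replicate 3. The value of APC, 2.20 to 2.77 against 2.63 to 3.84 FPKM, rests on a listed transcript of 524 bases, where the longest annotated one has 10701.

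Of the 7 nuclear factors, 3 were lower and 1 was higher, or 57.1% called against 40.8% of all genes. TCF7L1 encodes a TCF factor that mostly represses Wnt targets and is known from epidermal stem cells. TCF7L1, at chr2:85133410-85310388 on the plus strand, had 8.20, 8.53 and 9.44 FPKM with miR-204-5p mimics and 13.2, 14.2 and 12.1 FPKM with control mimics. The groups were well apart, 8.73 ± 0.643 against 13.2 ± 1.05 FPKM (SD, n = 3), 1.51-fold lower (limma log2 fold change -0.54, SE 0.0759, adjusted p = 0.00204). TCF7, at chr5:134114711-134147997 on the plus strand, had 1.24, 1.65 and 1.56 against 0.802, 1.11 and 1.14 FPKM (limma log2 fold change 0.30, adjusted p = 0.0483), a call lost under 8 of 11 alternatives (limma adjusted p up to 0.135). In FPKM, TCF7L1 exceeded TCF7 by 10.6 to 16.4 times in control libraries and by 5.17 to 6.60 times with miR-204-5p mimics. The TCF7 value rests on a listed transcript of 3045 bases, where the longest annotated one has 5340. TCF7L2 had 1.85, 1.51 and 2.15 against 1.62, 2.27 and 2.93 FPKM (log2 fold change -0.19, 95% interval -0.58 to 0.19), and LEF1 was at 0.0792 to 0.318 FPKM, with overlap in both.

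BCL9, the adaptor that joins β-catenin to PYGO proteins, at chr1:147541412-147626216 on the plus strand, had 3.05, 3.43 and 3.80 FPKM with miR-204-5p mimics and 5.30, 4.89 and 4.62 FPKM with control mimics. It fell 1.44-fold with no overlap (limma log2 fold change -0.42, SE 0.0847, adjusted p = 0.00819). Its paralogue BCL9L, with an 8mer and a 7mer-m8, had 19.1, 19.7 and 23.2 against 23.8, 23.8 and 21.8 FPKM, with overlap (log2 fold change -0.16, 95% interval -0.35 to 0.03), and passed the test only without miR-204-5p mimics replicate 3 among the alternatives. PYGO2, the partner of both, had 23.3, 23.2 and 24.3 against 25, 26.1 and 26.2 FPKM, a small decrease (limma log2 fold change -0.12, adjusted p = 0.0446) whose call was lost under 6 of 11 alternatives (limma adjusted p up to 0.124).

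**Figure D4:**
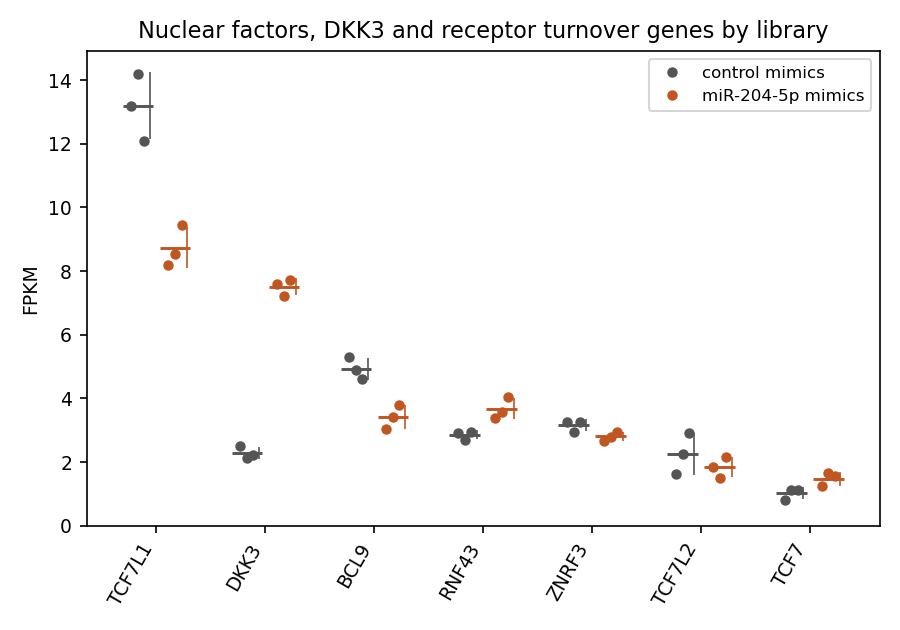
FPKM (y axis, linear) of TCF7L1, DKK3, BCL9, RNF43, ZNRF3, TCF7L2 and TCF7 (x axis) in each library. Points are the 3 control and 3 miR-204-5p libraries, horizontal lines the means and vertical lines the SD. TCF7L1 and BCL9 are lower and DKK3 is higher after miR-204-5p mimics, while TCF7L2 shows overlap.

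The seed matches were set beside these changes. Of the 18 Wnt genes with a match of at least 7 bases, 6 were lower, 6 were higher and 6 did not pass. Over all genes with such a match, 27.0% were lower and 16.4% higher. Without a match, 3 of 31 Wnt genes were lower and 10 were higher, against 13.2% and 26.6% of all genes without one. Wnt genes with a match had a median log2 fold change of -0.05 and those without one of 0.02, and the medians of all genes were -0.03 and 0.06. Lower Wnt genes with a match were WNT4, WNT3A, FZD1, FZD5, TCF7L1 and BCL9, and lower ones without were WNT16, FZD7 and PYGO2. A match is a description of the sequence and does not show that the microRNA binds there.

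**Figure D5:**
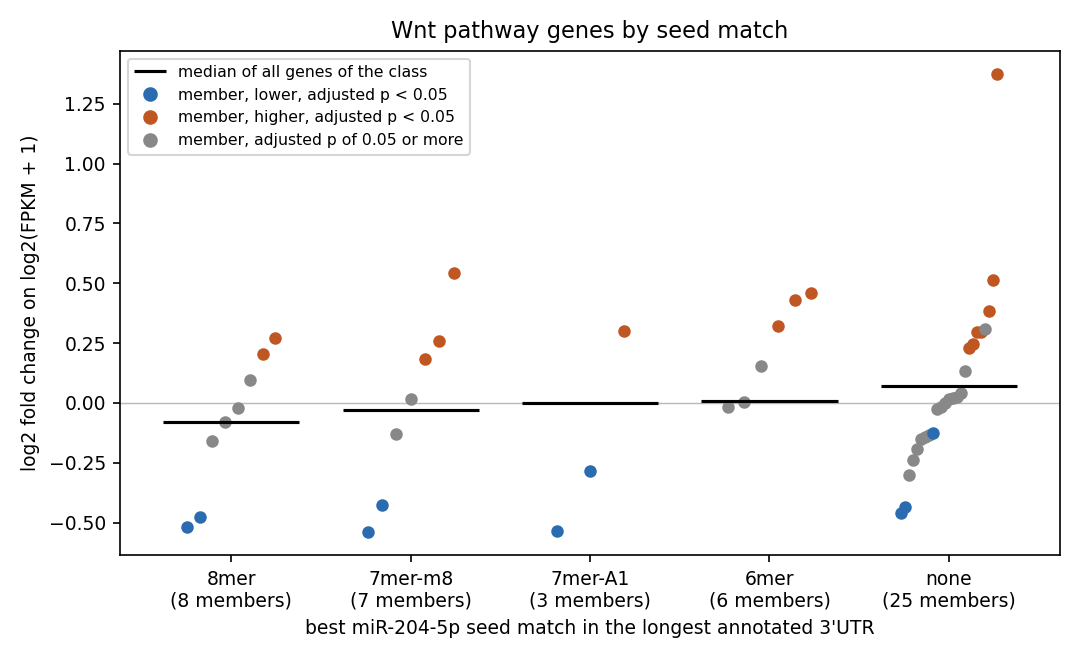
Log2 fold change on log2(FPKM + 1) (y axis) of the 49 Wnt genes by their best seed match in the longest annotated 3'UTR (x axis). Points are genes, coloured by limma call, and black lines the median of all genes of the class, from -0.08 for 8mer genes to 0.07 for genes with no match. The 8mer class of 8 Wnt genes holds 2 lower and 2 higher genes.

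A further list of Wnt pathway genes held 49 genes with a value out of 68, of which 12 fell and 7 rose after miR-204-5p mimics. The share called, 38.8%, was near the 40.8% of all genes. CTNNB1, which encodes β-catenin itself, had 27.4, 26.8 and 26.2 FPKM against 25.5, 23.9 and 26.4 FPKM, with overlap (log2 fold change 0.08, 95% interval -0.03 to 0.20). The strongest decrease on the list was in CTNNBIP1, the inhibitor that blocks β-catenin from TCF, at 6.58, 6.44 and 6.22 against 13.4, 12.9 and 15.9 FPKM, 2.19-fold lower (limma log2 fold change -1.02, adjusted p = 0.000262). The acetyltransferase coactivators CREBBP and EP300 were also lower (limma log2 fold change -0.59 and -0.45, adjusted p = 0.00136 and 0.00421). The increases were led by KREMEN2, a co-receptor of DKK1, at 11.4, 11.1 and 13.0 against 7.07, 7.23 and 7.19 FPKM (limma log2 fold change 0.65, adjusted p = 0.000551), followed by LMBR1L and the casein kinase gene CSNK1E (limma log2 fold change 0.52 and 0.47, adjusted p = 0.000815 and 0.00166). Negative and positive regulators thus appeared in both directions.

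Genes that β-catenin is known to induce were counted as a readout list. Of 26 such genes, 20 had a value, 6 were lower and 4 higher, with a median log2 fold change of -0.06 against 0.03 for all genes. The share called was 50.0%, 30.0% lower and 20.0% higher, against 40.8%, 16.8% and 23.9% of all genes. The list includes 5 of the 49 members, none lower and 2 higher, and of its 15 other genes 6 were lower and 2 higher. The 4 higher genes were CCND1, SOX9 and the members RNF43 and TCF7. CCND1, the cyclin of G1 phase, had 77.2, 80.9 and 79.1 FPKM against 55.1, 58.1 and 58.0 FPKM, 1.39-fold higher (limma log2 fold change 0.46, adjusted p = 0.000279). EPHB2, an ephrin receptor, had 0.973, 1.35 and 1.36 against 3.46, 3.50 and 3.10 FPKM, 2.73-fold lower (limma log2 fold change -0.97, adjusted p = 0.000444). CD44 and VEGFA were lower too (limma log2 fold change -0.43 and -0.41, adjusted p = 0.0118 and 0.0265). The call of VEGFA was lost without any one of the miR-204-5p libraries (limma adjusted p up to 0.0786). MYC, also on the list, did not pass the test. It had 29.1, 39.3 and 2.73 FPKM with miR-204-5p mimics and 17.5, 1.99 and 18.6 FPKM with control mimics. The MYC groups overlapped, with wide scatter in both (limma log2 fold change 0.69, SE 1.1, adjusted p = 0.657). The count of higher genes fell to 2 with quantile normalization and without each library except miR-204-5p mimics replicate 1, and the total fell to 6 without miR-204-5p mimics replicate 2 or miR-204-5p mimics replicate 3.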

How the data were processed

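RNA-seq libraries (Illumina TruSeq) were made from 3 cultures per group, assigned by sample title. The authors deposited FPKM values for 14959 genes, each with 1 listed transcript. The submitters' processing notes name HISAT2, StringTie and hg38, without versions, and the annotation and strand setting are not given in the sources used here. The authors' edgeR log2 ratios, p-values and FDR in the same table were not used. Because FPKM are not counts, limma 3.58.1 (R 4.3.3; lmFit, eBayes with trend) was fitted to log2(FPKM + 1) of all genes, two-sided, with Benjamini-Hochberg adjustment at 0.05 and no filter. The spread is that between cultures of 1 cell line.

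Depth was inferred from steps in FPKM × length among low values of genes with 1 annotated transcript. Whole multiples of the step (within 0.05) were 32.4% to 37.0% of values, against 8.3% to 9.2% at the median of other steps, so counts were not recovered. The implied depth was 13100000 to 16400000 fragments, with overlap between groups. Spearman correlations across genes were 0.9899 to 0.9908 within groups and 0.9733 to 0.9756 between groups. On simulated data of 14959 genes for this comparison, 67 of 100 genes changed by 0.5 and 89 of 100 changed by 1.0 (log2) were called, with 8 unchanged genes. All changed genes averaged 1 FPKM or more, and their share was far below the 40.8% called in the real libraries. These rates therefore need not hold for the real libraries or for genes under 1 FPKM.

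Of the listed transcripts, 14951 were found in GENCODE 29 and 14844 had the same coordinates. The miR-204-5p sequence is from RefSeq (1 of 1 matched), and sites are from GENCODE 29 transcripts. Members and lists were chosen with earlier results of these data known. Full values were given for members with an adjusted p under 0.05, members without overlap at a mean FPKM of at least 1 and an absolute log2 fold change of at least 0.25, and the 5 most abundant members. Other members were chosen for per-library values after their values were seen. From the other pathway lists, CTNNB1 and up to 3 genes in each direction were named, and MYC was added after its values were seen. Alternatives were a pseudocount of 0.1, a mean FPKM of at least 1, a replicate block, median scaling, quantile normalization and each library left out. Python 3.11.15, numpy 2.4.6, pandas 2.3.3 and matplotlib 3.10.9 were used otherwise.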

Additional observations from a re-analysis of the deposited data

How the results depend on the processing

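Of the 25 Wnt genes called, 17 kept direction and call in every alternative that tested them, 7 lower and 10 higher. Among the kept genes, WNT16, WNT11, WNT5B, WNT2B, WNT10B and ROR1 average under 1 FPKM. They were not tested in the alternative limited to genes averaging 1 FPKM or more. WNT7B, WNT3, TCF7, GSK3B, RNF43, PYGO2, FZD7 and WNT8B lost the call in at least 1. With 1 library left out, 18 to 23 Wnt genes were called, 7 to 12 lower and 11 to 14 higher. Restricting the table to genes averaging 1 FPKM or more left 10 higher Wnt genes, since 6 of the 16 are below that level, and 2 higher genes of the planar cell polarity and calcium list. Quantile normalization left 2 higher β-catenin target genes. With 1 library left out, the lists gave 4 to 6 higher further Wnt pathway genes, 3 to 7 lower planar cell polarity and calcium genes, and 6 to 9 β-catenin target genes in either direction, 2 to 4 of them higher. The sign turned for DKK1 with equal medians (log2 fold change -0.00) and without miR-204-5p mimics replicate 1 or control mimics replicate 2 (range -0.01 to 0.09 with 1 library left out), and for DVL2 without replicate 1 of either group (0.01 and 0.02, range -0.04 to 0.02). Neither gene was called. Deviations from the group means correlated at -0.04, -0.021 and -0.108 for the same replicate number and at -0.069 to 0.11 for different numbers. No library correlated best with its own number, but deviations from means of only 3 libraries depend on each other and cannot exclude pairing. With the replicate block, 21 Wnt genes were called, 9 lower and 12 higher; GSK3B, PYGO2, RNF43, WNT3 and WNT7B were lost and FZD6 was gained (limma log2 fold change -0.30, adjusted p = 0.0493). Genes under 1 FPKM rest on few fragments.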

Other observations

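The planar cell polarity and calcium branches of Wnt signalling, which act without β-catenin, were counted from a list of 33 genes, of which 31 had a value. In the limma test 6 of them fell and 4 rose after miR-204-5p mimics, 32.3% against 40.8% of all genes. The polarity cadherin CELSR1 had 15.9, 15.7 and 17.8 FPKM against 30.5, 28.5 and 25.6 FPKM, 1.71-fold lower (limma log2 fold change -0.74, adjusted p = 0.000673), and CELSR2 was lower as well (limma log2 fold change -0.37, adjusted p = 0.0149). PLCB3, a phospholipase of the calcium branch, had 24.8, 24.8 and 26.6 against 36.5, 36.1 and 34.8 FPKM (limma log2 fold change -0.48, adjusted p = 0.000387). The core polarity gene VANGL2 was higher, at 6.46, 7.07 and 6.71 against 5.09, 5.35 and 5.0 FPKM (limma log2 fold change 0.33, adjusted p = 0.00471), as was the kinase gene MAPK9 (limma log2 fold change 0.36, adjusted p = 0.0027). Without miR-204-5p mimics replicate 2, 3 genes were lower, and the call of CELSR2 was lost (limma adjusted p = 0.0505).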
